A study of Mus musculus with 10 samples.

Results

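The genes described here encode the scaffold of the presynaptic active zone, the patch of membrane at which synaptic vesicles dock and release transmitter. They are the 10 genes Bsn, Pclo, Rims1, Rims2, Rims3, Erc1, Erc2, Rimbp2, Ppfia2 and Ppfia3, taken by symbol as presynaptic active zone proteins, and all 10 were found among the 22255 genes of the gene table. The libraries were made from total RNA of synaptoneurosomes (synaptic endings and spines that reseal after tissue is broken up) from the hippocampus of C57Bl/6J mice labelled wild type. One group of 5 libraries came from mice given vehicle and the other group of 5 came from mice given AM6545, a blocker of CB1 cannabinoid receptors with poor entry into the brain, over a sub-chronic course. Age, sex and dose are not given in the labels, nor whether a library is 1 animal or a pool, so n counts libraries and p-values measure the spread between libraries.

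At a central synapse the large RIM proteins (Rims1 and Rims2) bind the vesicle GTPase Rab3, the priming factor Munc13 and calcium channels, while Rims3 encodes a short RIM that lacks the N-terminal part. RIM-binding protein 2 (Rimbp2) couples RIM to the calcium channel, the ELKS/CAST proteins (Erc1 and Erc2) bind RIM and the liprins-alpha (Ppfia2 and Ppfia3), and bassoon (Bsn) and piccolo (Pclo) are giant proteins that hold vesicles near the membrane. The proteins sit in the nerve terminal. The mRNA of a synaptoneurosome preparation can come from terminals, from postsynaptic compartments and from attached or broken cell bodies, and in such a bulk sample fewer cells of a type and less RNA per cell cannot be told apart.

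Library totals ran from 18106112 to 25899794 estimated counts, and the members held 114 to 3856 counts in any library. Markers of excitatory neurons summed to 2008 to 2454 CPM in vehicle and 2189 to 2452 CPM in AM6545 libraries (CPM is counts scaled to library size, with TMM factors), with 5 of 5 markers detected in every library. Markers of other cells were present too: those of oligodendrocytes summed to 13849 to 20270 CPM against 11663 to 27446 CPM, and those of choroid plexus to 64.2 to 4928 CPM against 639 to 3926 CPM, again with 5 of 5 markers of each list detected in every library. The interneuron sum was 638 to 866 CPM against 650 to 898 CPM. The ranges of these sums overlapped between the groups, and their part in the results below was not tested.

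How much of each scaffold mRNA the preparation held was compared as CPM per kilobase, adding up the transcript forms of a gene with each form divided by its own length. Erc2, which encodes CAST, had the highest level at 33.1 ± 2.47 CPM per kilobase in vehicle libraries (SD, n = 5), of which short forms gave much: Erc2-213 (1074 bases, 153 of them coding) held 32.0% and the retained-intron form Erc2-207 (638 bases) held 11.3%. Rims1 followed at 18.3 ± 1.92, Ppfia2 at 17.1 ± 2.48 and Rims2 at 15.8 ± 0.814 CPM per kilobase. Erc2 stood clear of Rims1 in every vehicle library, whereas the ranges of Rims1, Ppfia2 and Rims2 overlapped. Bsn at 11.1 ± 1.81, Ppfia3 at 11.0 ± 0.719 and Pclo at 9.94 ± 0.416 CPM per kilobase formed the next step of the order and overlapped one another. Erc1, which encodes ELKS, had 7.54 ± 0.941 CPM per kilobase, below Pclo and Ppfia3 in every vehicle library, while the lowest Bsn library reached its range. Rims3, a short RIM isoform with the C-terminal C2 domain alone, had 2.46 ± 0.179 and Rimbp2 had 1.24 ± 0.245 CPM per kilobase, and each of these was separated from its neighbours in the order by the vehicle ranges. AM6545 libraries gave levels in the same span, from 30.99 ± 3.12 for Erc2 to 1.18 ± 0.210 CPM per kilobase for Rimbp2 (SD, n = 5).

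The order, its top included, depended on the lengths and forms used. Without forms under 2000 bases, Erc2 had 17.1 ± 2.69 CPM per kilobase and overlapped Rims1 at 18.3 ± 1.92 and Ppfia2 at 17.1 ± 2.48, while Rims2 had 12.4 ± 0.814 and Ppfia3 had 6.27 ± 1.45 (SD, n = 5). That cut kept Rims1-207 (2294 bases, 657 of them coding), which gave 60.9% of the Rims1 level in vehicle libraries. With each gene's CPM divided by its longest coding transcript, Erc2 was first at 16.8 ± 1.87 CPM per kilobase, but Rims2 moved to second place at 11.4 ± 0.691, ahead of Rims1 at 10.7 ± 0.434 and Ppfia2 at 10.4 ± 1.40. The length used for Rims2 on that scale was 4800 bases, 4590 of them coding. Rims2-204, with 48.4% of Rims2 counts, extends beyond the end of that transcript. On that scale Bsn fell in the list from place 5 to place 7, at 5.45 ± 0.832 CPM per kilobase, behind Ppfia3 and Pclo. Rims3 and Rimbp2 held places 9 and 10 on all 3 scales.

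**Figure D1:**
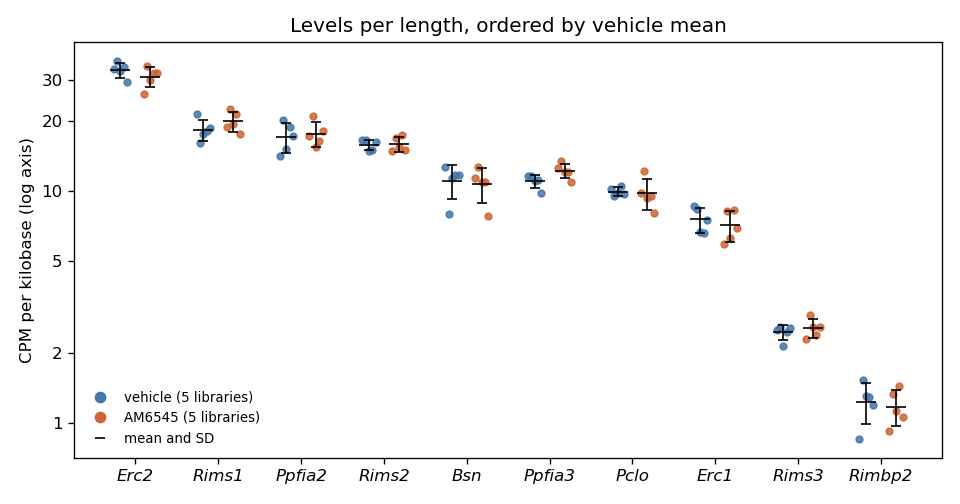
Level of each of the 10 scaffold mRNAs in CPM per kilobase (log axis), with each form divided by its own length; points are libraries, bars the mean and SD of 5 vehicle or 5 AM6545 libraries. Erc2 is highest near 33.1 in vehicle (17.1 without forms under 2000 bases), and Rimbp2 is lowest near 1.24.

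The question the series poses for these genes is whether sub-chronic AM6545 was accompanied by a different amount of scaffold mRNA in the synaptic fraction. No scaffold gene passed the test. Of the 10 members, all of which passed the filter on low counts, 0 passed edgeR's quasi-likelihood test at an adjusted p of 0.05, beside 0 of 14358 genes tested (0%), and 0 members were called by DESeq2 or by limma-voom with sample weights. Without adjustment, 1 member (Ppfia3) was higher with p under 0.05 and 0 were lower, against 1.14% of all genes higher and 0.738% lower. The log2 fold change of AM6545 against vehicle was above 0 in 6 of 10 members and in 48.1% of all genes. The median member had 0.01 and the median gene -0.01, and the members ran from -0.09 to 0.24. The standard error of a member's log2 fold change had a median of 0.10. Each adjusted p was 0.9998, so only sizes, intervals and unadjusted p-values are given for single genes.

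Among the RIM genes, Rims1, the main large RIM that primes vesicles, had 70.3, 66.7, 65.7, 68.7 and 72.6 CPM in vehicle libraries 1 to 5 and 68.1, 84.2, 71.0, 82.9 and 67.2 CPM in AM6545 libraries 1 to 5. The vehicle libraries lay close together, while AM6545 libraries 2 and 4 lay above all of them and the other three fell within the vehicle range. The log2 fold change was 0.12 ± 0.09 (SE; 95% interval -0.08 to 0.32, unadjusted p = 0.227). Rims2, its close paralogue, had 54.2, 58.4, 50.9, 52.9 and 58.3 CPM in vehicle and 54.0, 58.6, 54.6, 60.5 and 52.5 CPM in AM6545 libraries. AM6545 libraries 2 and 4 lay just above the vehicle range and the other three within it, with a log2 fold change of 0.03 ± 0.09 (SE; interval -0.16 to 0.21). Rims3 had 16.4, 16.6, 14.0, 16.1 and 16.5 CPM in vehicle and 14.9, 18.6, 17.0, 15.4 and 16.7 CPM in AM6545 libraries, a log2 fold change of 0.05 ± 0.10 (SE; interval -0.17 to 0.27). Vehicle library 3 was the lowest of the 10 for Rims3.

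Rimbp2, the RIM-binding protein of central synapses, was the scarcest member at 114 to 208 counts in a library. It had 5.53, 9.28, 8.51, 7.21 and 7.82 CPM in vehicle and 6.80, 8.37, 7.83, 8.66 and 7.71 CPM in AM6545 libraries. All AM6545 libraries fell inside the vehicle range, and the log2 fold change was 0.04 ± 0.14 (SE; interval -0.26 to 0.34).

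The ELKS/CAST genes had slightly lower means in AM6545 libraries. Erc1 had 48.6, 46.8, 37.96, 37.97 and 43.5 CPM in vehicle and 35.6, 47.9, 35.7, 44.6 and 38.6 CPM in AM6545 libraries. AM6545 libraries 1 and 3 lay below every vehicle library and the rest overlapped, giving a log2 fold change of -0.09 ± 0.11 (SE; interval -0.32 to 0.15). Its sign rested on vehicle libraries 1 and 2, and without both the value was 0.02. Erc2 had 93.9, 123, 99.4, 108 and 98.3 CPM in vehicle and 91.3, 108, 89.2, 99.4 and 108 CPM in AM6545 libraries. Vehicle library 2 was the highest of the 10 and AM6545 libraries 1 and 3 the lowest, and the log2 fold change was -0.08 ± 0.10 (SE; interval -0.29 to 0.14).

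Of the giant scaffolds, Bsn had 97.6, 63.8, 89.2, 91.6 and 92.0 CPM in vehicle and 87.9, 98.5, 85.3, 85.5 and 61.2 CPM in AM6545 libraries. One library of each group, vehicle 2 and AM6545 5, stood well below the other 8. The log2 fold change of Bsn was -0.05 ± 0.13 (SE; interval -0.33 to 0.23). Pclo, the most counted member, had 137, 159, 155, 158 and 143 CPM in vehicle and 146, 182, 137, 148 and 127 CPM in AM6545 libraries, with AM6545 libraries holding both the highest and the lowest value and a log2 fold change of -0.02 ± 0.10 (SE; interval -0.24 to 0.20).

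Ppfia2 and Ppfia3 encode the liprins-alpha enriched in brain, which help to recruit the scaffold to new terminals. Ppfia2 had 79.6, 110.0, 82.2, 98.6 and 93.2 CPM in vehicle and 86.98, 108, 82.0, 89.3 and 98.6 CPM in AM6545 libraries, with every AM6545 value inside the vehicle range and a log2 fold change of 0.00 ± 0.11 (SE; interval -0.23 to 0.23). Ppfia3 had 28.5, 39.6, 34.3, 38.3 and 34.9 CPM in vehicle and 42.1, 45.4, 38.9, 44.2 and 37.4 CPM in AM6545 libraries. AM6545 libraries 1, 2 and 4 lay above all vehicle libraries, while libraries 3 and 5 overlapped them. The means were 35.1 ± 4.32 and 41.6 ± 3.39 CPM (SD, n = 5 each), and the log2 fold change was 0.24 ± 0.10 (SE), with a 95% interval of 1.02-fold to 1.38-fold. The unadjusted p was 0.0322 with edgeR and the adjusted p was 0.9998, so Ppfia3 did not pass. Leaving out 1 library gave an unadjusted p of 0.0153 to 0.0752, above 0.05 without vehicle 1, 3 or 5 or without AM6545 1, 2 or 4. On the CPM per kilobase scale Ppfia3 had 11.0 ± 0.719 with vehicle and 12.2 ± 0.883 with AM6545 (SD, n = 5 each), where 4 of 5 AM6545 libraries lay above all vehicle libraries, and 6.27 ± 1.45 and 7.72 ± 0.772 without forms under 2000 bases.

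**Figure D2:**
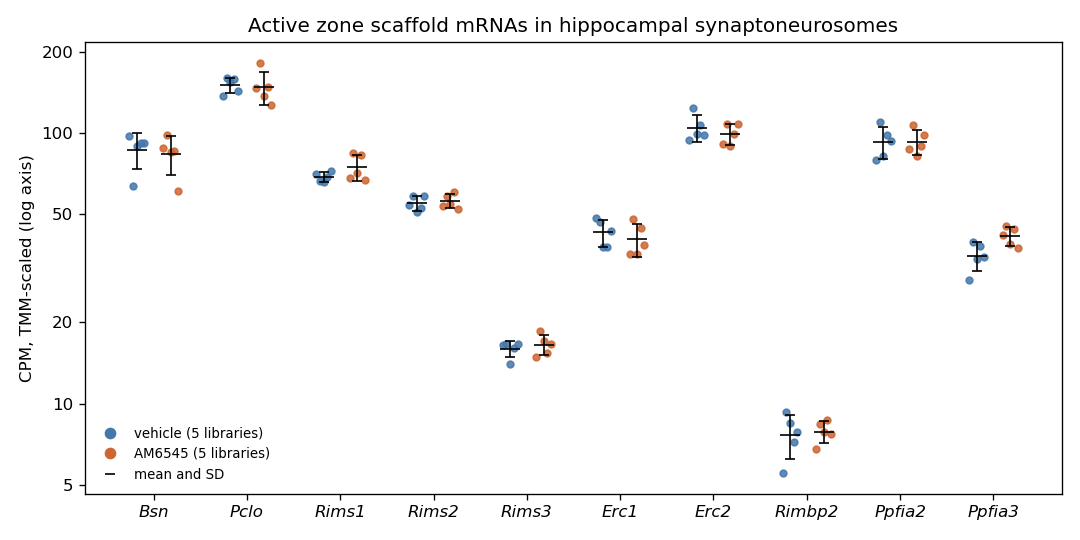
CPM of the 10 scaffold genes (log axis) in each of 5 vehicle and 5 AM6545 libraries, with the mean and SD of each group. The 2 groups overlap for every gene, and for Ppfia3 only vehicle libraries lie under 37.4 CPM.

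Ratios between paired members cancel what a library does to both genes, and 5 were set up as paralogue or partner pairs. The ratio of Ppfia2 to Ppfia3 was 2.79, 2.77, 2.40, 2.58 and 2.68 in vehicle and 2.07, 2.37, 2.11, 2.02 and 2.63 in AM6545 libraries. In AM6545 libraries 1 to 4 it was below every vehicle library, and in library 5 it was within the vehicle range. The means were 2.64 ± 0.162 and 2.24 ± 0.258 (SD, n = 5 each), a log2 difference of -0.24 with an exact two-sided permutation p of 0.0317 and 0.159 after adjustment over the 5 ratios, where the smallest p that 252 arrangements allow is 0.00794. Leaving out 1 library gave an exact permutation p of 0.0159 to 0.0635, above 0.05 without vehicle 1, 2 or 5 or without AM6545 1, 3 or 4. Since Ppfia2 had a log2 fold change of 0.00 and Ppfia3 of 0.24, this ratio largely restates the Ppfia3 difference in the same libraries. The Rims2 to Rims1 ratio averaged 0.799 ± 0.0445 with vehicle and 0.754 ± 0.0399 with AM6545 (SD, n = 5; exact permutation p = 0.143, adjusted 0.357), with 3 of 5 AM6545 libraries below all vehicle libraries. Rims3 to Rims1, Pclo to Bsn and Erc1 to Erc2 had log2 differences of -0.06, 0.02 and -0.02, with overlapping groups and exact permutation p-values of 0.492, 0.905 and 0.937. Thus 0 of 5 ratios passed the adjusted test.

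Transcript forms showed where the members' counts lay within each gene. The transcript table listed 73 forms of the members, 56 with a count in some library and 35 with enough counts to test, of which 0 had an adjusted p under 0.05 with edgeR (1 of 31848 transcripts did, 0.00314%). Without adjustment 1 form was higher and 1 lower with p under 0.05, against 1.1% and 0.873% of all transcripts. Both were forms of Rimbp2.

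Rimbp2-204 and Rimbp2-205 held 54.6% and 38.9% of the counts of the gene's listed forms. Of the 6446 exonic bases of Rimbp2-204, 6425 also lie in Rimbp2-205, so the bases particular to Rimbp2-204 are 1 exon of 21 bases (GRCm38 chr5:128811983-128812003, minus strand), all of it coding. Rimbp2-205, with 6966 exonic bases, lacks this exon and has 541 bases that Rimbp2-204 lacks: a stretch of 490 (chr5:128760850-128761339), 47 at its start and 4 at its end. The first 15 bases of the long stretch are the coding end of Rimbp2-205. Rimbp2-204 skips that stretch and ends its coding part on 24 bases that are exonic in both forms. Very short coding exons of this kind, often called microexons, are known mostly from neuronal transcripts. The exon and both coding endings are shown because they are where the coding parts of the 2 main forms differ. Capitals mark the segment and lower case the 3 bases on each side, which for both endings include the stop codon:
Rimbp2 short exon, in Rimbp2-204: gagAACACCCTGGACTGCATGCAGtcc
Rimbp2-205 ending (chr5:128761325-128761339): aggGTAAGCCAGCCCCCTtag
Rimbp2-204 ending (chr5:128760826-128760849): aggAAGAAGAGTGTTCATTTCACACCCtaa

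Forms with the short exon had a lower mean share of the Rimbp2 estimate in AM6545 libraries. Forms with the exon made up 70.1, 55.9, 86.4, 60.2 and 60.4% of the counts of forms that span it in vehicle libraries 1 to 5, and 50.5, 43.0, 20.4, 53.8 and 42.6% in AM6545 libraries 1 to 5. The groups did not overlap, although vehicle 2 at 55.9% and AM6545 4 at 53.8% lay close. Rimbp2-204 was the only form with the exon that had any counts. The scarce Rimbp2-207, which lacks the exon, held 17.65% in vehicle 2 and 21.9% in AM6545 4. With Rimbp2-204 and Rimbp2-205 alone the groups overlapped, as given below, so the separation rests on counting the scarcer forms too. The listed Rimbp2 forms held 96.37% of the gene's counts summed over the libraries, and the rest is in no share. Whether it would close so small a gap was not tested. The means were 66.6 ± 12.2% and 42.0 ± 13.0% (SD, n = 5 each), a difference of -24.5 percentage points, on 114 to 192 counts per library. The exact two-sided permutation p was 0.00794, the smallest that 5 against 5 allows. Among 493 exons of 30 bases or fewer in 393 genes, 1 (this exon, 0.203%) had every AM6545 library below every vehicle library, 1 had every one above, and 10 had an exact p under 0.05. The adjusted p over those 493 exons was 1, so the exon did not pass. By size of the difference it ranked 8 of 493. The exon was noticed among the members' segments before that scan was set up.

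The same difference seen as forms was a log2 fold change of -0.69 ± 0.28 for Rimbp2-204 (SE; unadjusted p = 0.0327) and of 1.01 ± 0.37 for Rimbp2-205 (unadjusted p = 0.0207), with adjusted p = 0.9999 for both in edgeR. Leaving out 1 library gave an unadjusted p of 0.0190 to 0.0946 for Rimbp2-204, above 0.05 without vehicle 2 or 3 or without AM6545 1 or 5, and of 0.00625 to 0.0595 for Rimbp2-205, above 0.05 without AM6545 3. Rimbp2-204 averaged 5.05 ± 1.37 CPM with vehicle and 3.13 ± 0.987 CPM with AM6545, and Rimbp2-205 averaged 1.98 ± 0.709 and 3.99 ± 1.63 CPM (SD, n = 5 each). Rimbp2-205 made up 27.4, 32.1, 11.9, 37.6 and 34.5% of the 2 forms together in vehicle and 49.5, 56.7, 79.6, 30.5 and 57.5% in AM6545 libraries. AM6545 library 4 lay within the vehicle range on this measure and the other four lay above it. Within these 2 forms alone the exon's share differed by -26.1 percentage points with an exact permutation p of 0.0317. The deposited values are estimates that divide reads between forms by every base that tells them apart, and most of those bases lie outside the short exon, in the stretch of 490. The share is thus one of forms with the exon, not of reads over the exon. Gm42875, on the opposite strand, covers 34 bases common to both forms.

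ERC genes carry comparable short exons, whose mean shares differed between the groups by less than the SD within them. In Erc1 a 12-base coding exon lies in Erc1-203 and not in Erc1-207. These 2 forms differ elsewhere too: 96 coding bases in all are only in Erc1-203, and the 3' ends lie 4519 bases apart. In Erc2 exons of 24 and 12 bases and a 24-base coding end lie in Erc2-205 and not in Erc2-201. As for Rimbp2, the shares are of forms with the segment, not of reads over it. The Erc2 end is shown because the last residues of ELKS and CAST form the motif that binds the PDZ domain of RIM; in lower case it is followed by the stop codon:
Erc1 12-base exon (GRCm38 chr6:119734081-119734092, minus strand): aagTCTCACCTCAAGgca
Erc2 12-base exon (chr14:28046475-28046486, plus strand): gagCTTGACTCTCAGgca
Erc2 24-base exon (chr14:27776159-27776182, plus strand): cagTTACTGGACGCCAGAAGAACCAAGcac
Erc2 24-base end (chr14:28317249-28317272, plus strand): cagGATGACGAGGAGGGCATATGGGCAtag

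The 12-base exons of Erc1 and Erc2 matched at 5 of 12 positions. Forms with the Erc1 exon held 70.9 ± 4.76% of the spanning counts in vehicle and 70.0 ± 3.41% in AM6545 libraries, and forms with the Erc2 12-base exon 64.1 ± 8.90% and 64.0 ± 3.74% (SD, n = 5 each). Forms with each exon thus held most of the counts that span it, which are not all counts of the gene. The Erc2 24-base exon was in the minority at 27.6 ± 7.34% and 28.1 ± 4.54%, and the RIM-binding end was in 58.4 ± 6.61% and 56.3 ± 3.71% of the counts that span it. Forms with a 30-base exon of Ppfia2 held 95.5 ± 2.87% of the spanning counts in vehicle and 91.9 ± 4.45% in AM6545 libraries. The only spanning form without that exon was Ppfia2-204, a processed transcript of 2977 bases with no coding part. Exact permutation p-values for the Erc1 exon, the Erc2 12-base and 24-base exons and the Ppfia2 exon were 0.738, 0.976, 0.889 and 0.159, and all 4 had overlapping groups.

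**Figure D3:**
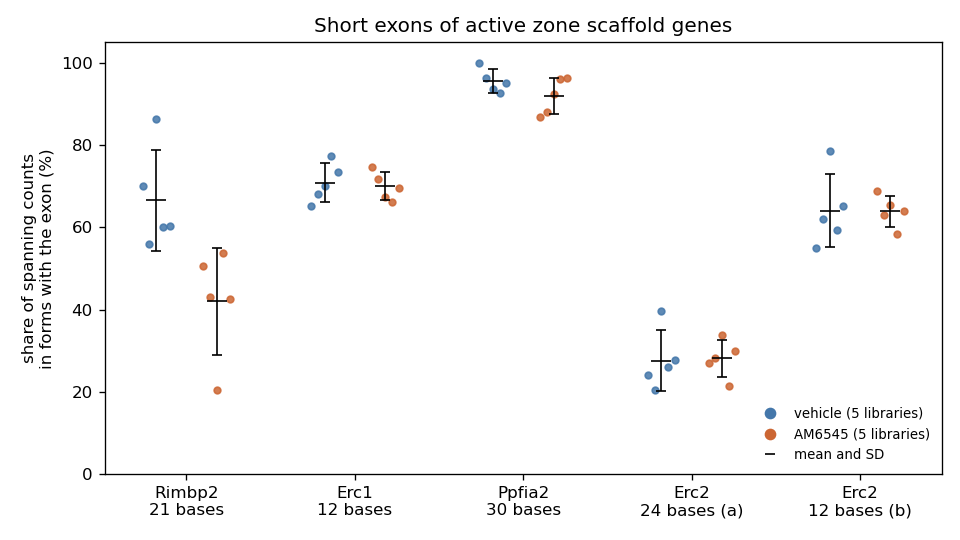
Share of spanning counts held by forms with each of the 5 short exons of the scaffold genes (in percent), for 5 vehicle and 5 AM6545 libraries, with the mean and SD. Only for the 21-base Rimbp2 exon do the groups not overlap, and they do overlap within Rimbp2-204 and Rimbp2-205 alone. Erc2 exons a and b are those of 24 and 12 bases.

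Forms that lack much of the gene's upstream part held a share of several members. In 5 genes there was a form that begins beyond 50% of the exonic bases of its full-length form and holds at least 10% of the gene's counts. Bsn-202 was the main form of Bsn with 92.0% of its counts: it has 7496 bases, all inside the 15938 bases of Bsn-201, and its annotated start is incomplete. The others were Pclo-204 (10.7% of Pclo counts), Rims1-207 (37.3%), Rims2-204 (48.4%) and the retained-intron form Ppfia3-208 (14.7%). Rims2-204 is not nested in its comparison form Rims2-201. Only 716 of its 3685 bases (19.4%) lie there, and the 3' ends are 2608 bases apart. Of the 4719 bases of Rims2-201, 4716 are coding, so its annotation holds almost no untranslated end. How much this adds to the Rims2-204 share was not tested. The rule was set after the pattern had been seen in 4 of these forms.

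The share of these forms did not separate the groups but did separate 2 vehicle libraries. Vehicle library 1 had the highest share of the 10 libraries and vehicle library 2 the lowest for all 5 forms. Bsn-202 took 94.5% of Bsn counts in vehicle 1 and 87.9% in vehicle 2, with 90.8 to 93.4% in the others. Pclo-204 took 20.7% and 2.88%, and Rims1-207 took 50.7% and 28.1%. Rims2-204 took 61.2% in vehicle 1 and 41.6% in vehicle 2. Ppfia3-208 took 29.2% in vehicle 1 and was listed at 0 in vehicle 2, where 0 of 837 counts would allow a share of up to 0.358% by counting error alone. Group means differed by less than the SD within vehicle libraries, for example 37.2 ± 8.37% with vehicle and 37.7 ± 2.72% with AM6545 for Rims1-207 (SD, n = 5). The TMM scaling factors of vehicle 1 and 2 were also the lowest and the highest of the 10, at 0.959 and 1.06. The choroid plexus markers summed to 4928 CPM in vehicle 1, the highest, and to 2526 CPM in vehicle 2. Vehicle 4 had the lowest sum, 64.2 CPM, with shares between those of vehicle 1 and vehicle 2 for all 5 forms. The part of the scaling and of these markers in the form shares was not tested.

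**Figure D4:**
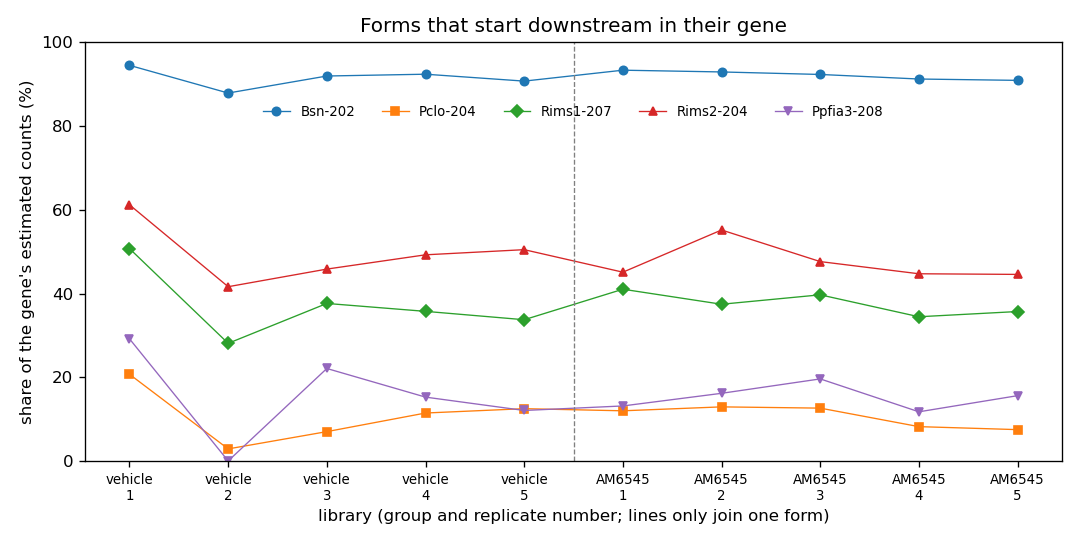
Share of each gene's estimated counts (in percent) held by 5 forms that begin far downstream in their gene, in each of the 10 libraries; lines only join the values of a form. Vehicle 1 is highest and vehicle 2 lowest for every form, for instance 61.2 and 41.6% for Rims2-204.

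None of the other main forms passed the adjusted test. Rims1-206 and Rims1-201, full-length forms that held 34.7% and 27.8% of Rims1 counts, had log2 fold changes of 0.00 ± 0.25 and 0.24 ± 0.23 (SE), and Rims1-207 had 0.13 ± 0.15. Pclo-202 (59.3% of Pclo counts) and Pclo-201 (29.8%), which differ at their ends, had -0.07 ± 0.15 and 0.06 ± 0.17. Both pairs had intervals that include 0. Rims2-206 and Rims2-201 had 0.15 ± 0.16 and -0.07 ± 0.23, and Rims3-201, which held 99.6% of Rims3 counts, 0.05 ± 0.09. Erc2-208 (38.7% of Erc2 counts) begins further downstream than Erc2-201 (30.8%), and the 2 forms had -0.16 ± 0.14 and -0.07 ± 0.21. The short Erc2-213 (10.8%) had 11.4 ± 1.45 CPM with vehicle and 10.8 ± 1.22 CPM with AM6545 (SD, n = 5), and -0.08 ± 0.13. Erc1-203 (52.7%), Erc1-207 (29.3%) and Erc1-206 (17.2%, annotated for nonsense-mediated decay) had -0.09 ± 0.12, -0.06 ± 0.20 and -0.13 ± 0.18. Ppfia2-201 (81.0%) and Ppfia2-203 (11.8%) had -0.07 ± 0.12 and 0.05 ± 0.12. The full-length Ppfia3-207 (70.1% of Ppfia3 counts) averaged 24.3 ± 4.92 CPM with vehicle and 29.96 ± 5.14 CPM with AM6545 (SD, n = 5), and its log2 fold change was 0.30 ± 0.17 (unadjusted p = 0.103). Ppfia3-201, which did not pass the count filter, has as many coding bases (3582). It had 7.39, 10.4 and 14.4 CPM in vehicle 2, vehicle 4 and AM6545 4 and 0 in the other libraries. How the estimate divided counts between these 2 forms was not tested. The scarce Ppfia3-203, at 0 to 35.5 counts, had 1.43 ± 0.74 (unadjusted p = 0.0826), with 4 of 5 AM6545 libraries above all vehicle libraries, and Erc2-207, a retained-intron form, had -0.56 ± 0.35 (unadjusted p = 0.141). Every adjusted p among the tested forms named here was 0.9999.

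Some of these counts may include reads of overlapping genes, since the use of strand in the counting is not given in the sources used here. Exons of Gm44317 on the opposite strand cover 1919 bases (21.9%) of Erc1-203, and those of Acss3 cover 2436 bases (27.4%) of Ppfia2-203. Mtag2 overlaps only Ppfia3-202, a form with at most 2 counts in a library. Fewer than 1% of the 31-base words of any member occur in transcripts of another gene, at most 0.714% for Erc1.

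Around the scaffold, 38 presynaptic partner genes (further RIM, RIM-BP, liprin, Munc13, Rab3, calcium channel and receptor phosphatase genes) were followed in the same way. All 38 were tested and 0 were called by edgeR, with 0 higher and 2 lower at an unadjusted p under 0.05 (1.14% and 0.738% of all genes), 20 of 38 above 0 (48.1% of all genes) and a median log2 fold change of 0.01 (-0.01 over all genes). Rab27b, a GTPase of secretory vesicles, had 62.7, 60.8, 55.8, 59.1 and 57.5 CPM in vehicle and 49.8, 52.3, 44.4, 50.2 and 56.5 CPM in AM6545 libraries. AM6545 library 5 was within the vehicle range and the other four were below it, with a log2 fold change of -0.22 ± 0.09 (SE; unadjusted p = 0.0233, or 0.0590 without AM6545 3, adjusted 0.9998). Rab3c, one of the vesicle GTPases that RIM binds, had 255 ± 15.4 and 223 ± 15.9 CPM (SD, n = 5), with a log2 fold change of -0.19 ± 0.09 (unadjusted p = 0.0457). That p was 0.0254 to 0.115 with 1 library left out, and under 0.05 only without vehicle 1, vehicle 2 or AM6545 2. Rab3a, the main Rab3 of central synapses, had -0.03 ± 0.12, with its sign turning under some alternatives. Rims4, the fourth RIM gene, had 9.48 ± 0.820 and 10.8 ± 1.20 CPM and a log2 fold change of 0.19 ± 0.12 (unadjusted p = 0.132). Unc13a, which encodes the priming factor Munc13-1 that RIM recruits, had 48.9 ± 3.67 and 53.8 ± 5.28 CPM and 0.14 ± 0.10 (unadjusted p = 0.175). Cacna1a, the pore of the P/Q-type channel, had 0.02 ± 0.14, and its sign also turned under some alternatives.

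**Figure D5:**
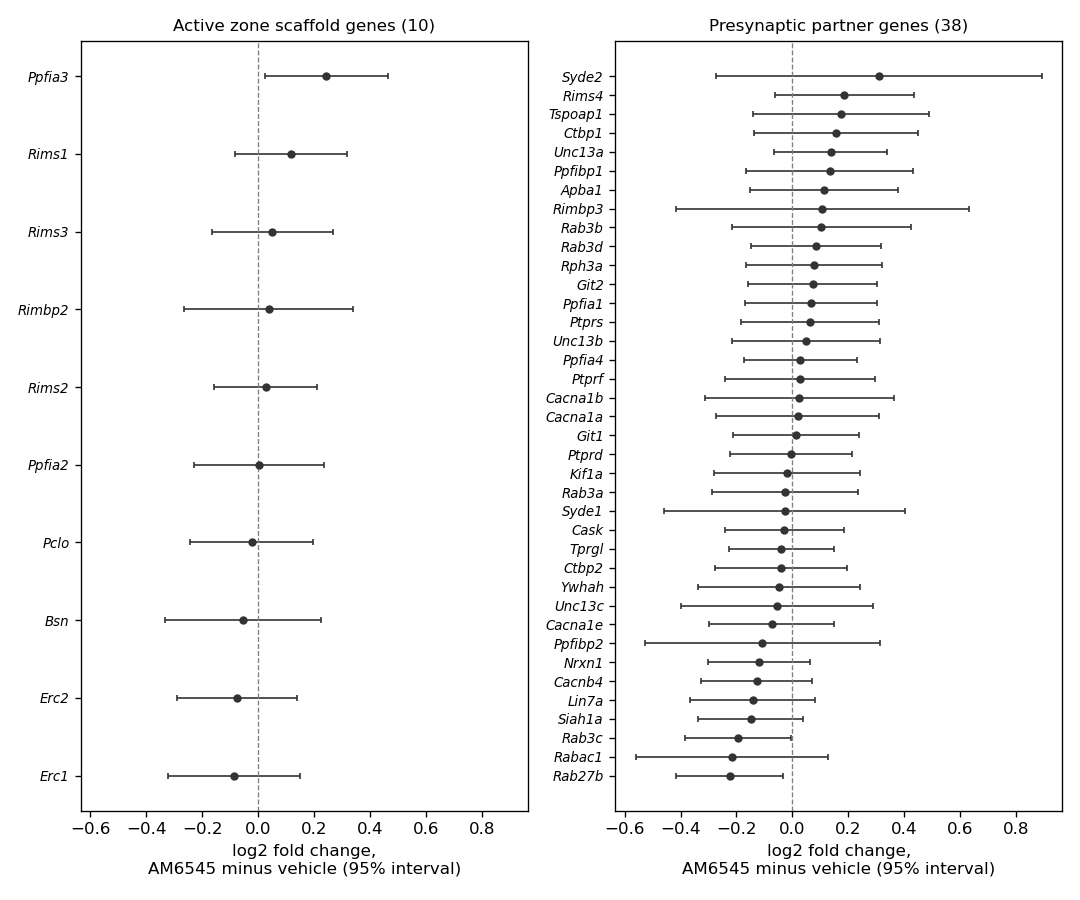
Log2 fold change of AM6545 against vehicle libraries with its 95% interval from edgeR, for the 10 scaffold genes (left) and 38 presynaptic partner genes (right). The intervals of Ppfia3 (above 0) and of Rab27b and Rab3c (below 0) leave out 0, and no gene passed after adjustment.

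Across the 10 libraries the members did not move as one. Pearson's r of log2 CPM over 45 member pairs had a median of 0.398 and ran from -0.568 for Bsn with Erc2 to 0.877 for Erc2 with Ppfia2, with 38 of 45 above 0. Rims1 and Rims2 had r = 0.739. These values describe 10 libraries that share a normalization. By library, AM6545 2 was the highest of the 10 for 5 members, and vehicle 1 and vehicle 3 were each the lowest for 3.

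The genes whose log2 CPM correlated most with Bsn and with Rims1 over the 10 libraries were all outside the scaffold. Of all tested genes Neurl1b was most like Bsn (r = 0.968), followed by Tmem178b (0.933), Ccdc18 (0.924), Msmo1 (0.924) and Lmbrd2 (0.922). Neurl1b had 9.76 to 18.8 CPM in vehicle and 10.5 to 18.3 CPM in AM6545 libraries. Most like Rims1 were Rfx1 (r = 0.936), Gpr101 (0.891), Myo18a (0.882), Pdcd11 (0.877) and Cobl (0.875), and among the members Rims2 came nearest, at place 52 of the tested genes. For Bsn the nearest member was Rims1, at place 2486 with r = 0.426.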

How the data were processed

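The values deposited by the authors are estimated counts of genes and of transcripts, in 2 tables, for total RNA of 10 libraries. Libraries were prepared by a SMARTer low-input method, per the labels' protocols. Salmon 1.5.2 and mm10 are named in the submitters' processing notes; the annotation release and the use of strand are not given in the sources used here. Symbols were matched for 22155 of 22255 genes. Coordinates, form names and lengths are those of GENCODE M21 (GRCm38), whose identifier versions matched only 11 genes and 13 transcripts of the tables, so the authors' models may differ. Sequences were read from that release's transcripts.

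Groups and replicate numbers came from titles. Estimated counts were rounded and tested with edgeR 4.0.16 in R 4.3.3 (TMM, filterByExpr with minimum count 10 and total 15, robust quasi-likelihood test, two-sided, Benjamini-Hochberg over all features, threshold 0.05). Ratios and exon shares had exact permutation tests on group means. The exon scan took exons of at most 30 bases with at least 10 spanning counts and a mean share of 5 to 95%. Alternatives used DESeq2 1.42.0, limma 3.58.1, other scalings and filters, a replicate block and leaving out libraries. Named were all 10 members, the 2 partners of smallest p in each direction with Rims4, Unc13a, Rab3a and Cacna1a, forms of at least 10% of a member's counts, the 2 forms of smallest p in each direction, and the 5 genes most like Bsn and Rims1. The members and lists were chosen with earlier results of these data known.

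Library totals were 18106112 to 25899794 counts. Reads were amplified with no molecular identifier stated, so the upper limit given for the share of an undetected form covers counting error only. The intervals of fold changes come from edgeR's quasi-likelihood fit and, like its p-values, include the spread between libraries.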

Additional observations from a re-analysis of the deposited data

Results flagged for a closer look

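In 40 groups of 5 libraries tested for a library standing apart, of which chance would give about 2, 3 had one. Bsn had 63.8 CPM in vehicle library 2, while the other vehicle libraries had 89.2 to 97.6 CPM. Rims3 had 14.0 CPM in vehicle library 3, below 16.1 to 16.6 CPM in the others. Rims2-204 held 55.2% of Rims2 counts in AM6545 library 2, above 44.6 to 47.6% in the others.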

How the results depend on the processing

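In every gene fit 0 members and 0 partners passed after adjustment, and 4 to 7 of 10 members lay above 0. Of member transcripts 0 passed in each alternative run, which did not include leaving out vehicle 1 and 2 together, and 0 ratios passed with another pseudocount, with the block or without 1 library. Over all genes the count of 0 became 1 with limma-voom (Insc), without vehicle 3 (Gm28048) and without AM6545 3 (Insc), a range of 0 to 1 over the libraries left out; the cause was not tested. Genes with an unadjusted p under 0.05 went from 270 to 706 with limma-voom, 433 with no filter, 578 without vehicle 2, 504 without AM6545 3, 414 without vehicle 4 and 165 without AM6545 4. Transcripts passing after adjustment went from 1 to 11 with DESeq2's Wald test, to 4 without AM6545 3 and to 2 with no filter or without vehicle 2 or AM6545 2, stayed at 1 with DESeq2 size factors or library totals, and went to 0 in the other fits. Ppfia3 had log2 fold changes of 0.18 to 0.29 without 1 library and an unadjusted p of 0.00811 to 0.0422 under the other settings. The Rimbp2 exon share differed by -27.5 to -19.1 percentage points without 1 library. The exact permutation p was then 0.0159, the smallest 4 against 5 allow. That p was fixed in advance, since the full groups do not overlap, and so is no test of stability.

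Signs of values near 0 turned, and the cause was not tested. Leaving out 1 library gave ranges of log2 fold changes of -0.15 to 0.04 for Bsn, -0.11 to 0.03 for Pclo, 0.00 to 0.05 for Rims2, -0.06 to 0.12 for Rimbp2, -0.06 to 0.07 for Ppfia2, -0.08 to 0.06 for Rab3a and -0.11 to 0.10 for Cacna1a. For forms they were -0.15 to 0.05 for Bsn-202, -0.18 to 0.07 for Erc1-207, -0.21 to 0.05 for Erc2-201, -0.12 to 0.15 for Pclo-201, -0.19 to 0.03 for Pclo-202, -0.23 to 0.31 for Pclo-204, -0.13 to 0.02 for Ppfia2-201, -0.01 to 0.09 for Ppfia2-203, -0.04 to 0.52 for Ppfia3-208, -0.17 to 0.15 for Rims1-206, -0.21 to 0.11 for Rims2-201 and -0.11 to 0.04 for Rims2-204. For ratios they were -0.06 to 0.15 for Pclo to Bsn, -0.07 to 0.07 for Erc1 to Erc2 and -0.10 to 0.00 for Rims3 to Rims1. With limma-voom the values were -0.01 for Ppfia2, 0.08 for Rab3a, -0.05 for Cacna1a, 0.08 for Erc1-207, 0.07 for Erc2-201 and 0.06 for Rims1-206. DESeq2's size factors and its Wald test gave 0.00 for Ppfia2 and Pclo-204, and no filter gave -0.01 for Pclo-204. Without both vehicle 1 and 2, an alternative added after seeing the data like those on the Rimbp2 exon, on length and on forms under 2000 bases, Erc1 had 0.02, Rab3a 0.01 and Cacna1a -0.04.

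With the replicate number as a block Cacna1a had -0.01, Rims1-206 had 0.03, the unadjusted p of Ppfia3 was 0.0278 and that of Rab3c 0.0614 (0.0611 with no filter), the exact permutation p of Ppfia2 to Ppfia3 was 0.0625, 0 member transcripts had an unadjusted p under 0.05 instead of 2, and 0 genes were called. Same-numbered libraries correlated at -0.14, -0.19, 0.23, 0.39 and 0.06, and 3 of 5 correlated best with their own number. These values do not settle whether the numbers pair the libraries. The labels give 2 groups of 5, so group alone was the main design and the block an alternative. Rimbp2 counts of 114 to 208 per library limit its form shares.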
